A study of Mus musculus with 2 samples.

Results

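The cells described here were macrophages that carried RNA of C1q but none of 3 Kupffer cell markers, taken from the droplet library labelled spleen, whose deposited matrix is named for the liver. A barcode (a droplet taken as 1 cell) was chosen by its RNA counts, that is, when its unique molecular identifiers (UMIs, each standing for 1 captured RNA molecule) summed to at least 5 over C1qa, C1qb and C1qc, to 0 over Clec4f, Vsig4 and Timd4, and to at most 1 over the T cell genes Cd3d, Cd3e and Cd3g. It also needed a hashtag, an antibody-bound oligonucleotide that marks the treatment group, with at least 10 UMIs and at least 3 times the next hashtag. In all, 218 barcodes met this rule, of 4483 with a group and 4830 in that library, and of 14421 in the series.

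The mice were BALB/cAnNCrl and carried liver metastases of 4T1-Luc, a mouse mammary carcinoma line with a luciferase gene, that arose from tumor cells injected into a hemi-spleen. CBL0137, a DNA-binding curaxin, was infused into the hepatic artery at a low or at a high dose, the third group received the vehicle, and cells of 2 mice were pooled per group 5 days later. Each group was therefore 1 pooled sample of 1 library. The differences between mice cannot be seen in such data, no test between groups was possible, and all intervals below are exact 95% intervals that cover counting error only. The methods of the study state an amount of CBL0137 for the tumor response experiments. It is not tied there to a low or a high dose, and neither dose of these libraries was found in the sources at hand. The labels call the material leukocytes isolated on a density gradient, whereas the methods of the study describe isolation of CD11b+ cells with beads, and neither step is specific for macrophages.

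Tissue macrophages take up dying cells, lipoproteins and iron, and they present peptides on MHC class II to helper T cells. Kupffer cells are the resident macrophages of the liver sinusoids and are marked by the lectin Clec4f, the complement receptor Vsig4 and the phosphatidylserine receptor Timd4. Monocytes that enter an injured or tumor-bearing liver can become macrophages that make C1q before, or without, taking on these markers. C1q itself is the recognition component of the classical complement pathway.

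The group of each cell rested on 3 hashtag sequences of 15 bases, shown because they alone carry the treatment label. They are printed 5′ to 3′ in lower case, from the deposited feature list.
A0301, vehicle: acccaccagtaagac
A0305, low dose: ctttgtctttgtgag
A0310, high dose: ccgattgtaacagac
Any pair of them differed at 10 or 11 of the 15 positions. The median count of the leading hashtag was 1625 UMIs in vehicle cells, 2363 in low-dose cells and 497.5 in high-dose cells, so the calls of the high-dose group rested on the fewest hashtag molecules. With HTODemux, which sets a cutoff per hashtag from the data, the cells numbered 40, 56 and 44 instead of 39, 55 and 124, so the high-dose group held far fewer cells under that caller.

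The tissue labels and the names of the matrices disagreed between the libraries. In the library labelled spleen, 213 barcodes with a group had at least 3 UMIs of the Kupffer cell markers, against 3 in the library labelled liver, where 194 barcodes met the rule for cells without them. The 2 libraries shared 15 barcode sequences, of which 1 belonged to a cell described here. Beside the cells without Kupffer markers, the 213 barcodes with at least 3 marker UMIs are used as the comparison below, and 73 with 1 or 2 UMIs lay just outside the rule.

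Depth differed between the groups and is needed to read every value. The vehicle cells held 314855 UMIs in all, with a median of 6488 per cell and 2041 genes. The low-dose cells held 630145 UMIs, with a median of 11089 per cell and 3029 genes. The high-dose cells held 930094 UMIs, but their median was 2274.5 per cell and 875 genes. The high-dose cells were thus the most numerous and the shallowest. Their median mitochondrial share was 7.32% of UMIs, against 5.86% in vehicle and 4.95% in low-dose cells, and 24 of 124 exceeded 20%, against 4 of 39 and 4 of 55. Cells with under 1000 UMIs numbered 8, 1 and 27 in the vehicle, low-dose and high-dose groups.

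The thresholds of the rule cut through continuous counts. At 4 UMIs of C1q, just under the threshold, lay 24 barcodes, and at 5 UMIs lay 17. At exactly 1 Kupffer marker UMI lay 49 barcodes with a median of 7042 UMIs, whereas the median of the cells at 0 was 3905. A count of 0 depends on depth, so shares at a fixed depth are given beside the shares at full depth below.

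The share of these cells among all barcodes with a group was close to the same in the 3 groups. It was 4.76% in vehicle (3.40 to 6.44), 4.17% at the low dose (3.16 to 5.40) and 5.29% at the high dose (4.42 to 6.27). The difference from vehicle was 0.53 percentage points at the high dose, with limits of -2.03 and 2.87, and -0.58 points at the low dose, with limits of -3.29 and 1.99. Among barcodes with at least 2000 UMIs, with Kupffer markers read after thinning to 2000 UMIs and C1q at full depth, the shares were 5.44% of 643, 5.55% of 1081 and 6.95% of 1454, so vehicle and not the low dose was lowest there. Barcodes with at least 3 Kupffer marker UMIs made up 1.46%, 3.34% and 6.70% of the vehicle, low-dose and high-dose barcodes. Their high-dose share exceeded that of vehicle by 5.23 points (3.17 to 7.02). After the same thinning they numbered 5 of 643, 29 of 1081 and 74 of 1454.

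Among all 504 C1q macrophages, the part without Kupffer markers was accordingly smaller after treatment. It was 61.9% of 63 in vehicle (48.8 to 73.9), 47.8% of 115 at the low dose (38.4 to 57.3) and 38.0% of 326 at the high dose (32.7 to 43.5). The high-dose share was 23.9 points below that of vehicle, with limits of -41.1 and -5.25, while the limits of the low-dose difference of -14.1 points, -35.4 and 8.55, included 0. When every C1q macrophage was thinned to 2000 UMIs, which left 44, 97 and 198 barcodes of that depth, the shares were 79.5%, 61.9% and 51.0% and kept that order. The number of mice behind each share was 2, pooled, so the spread between mice is unknown.

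**Figure D1:**
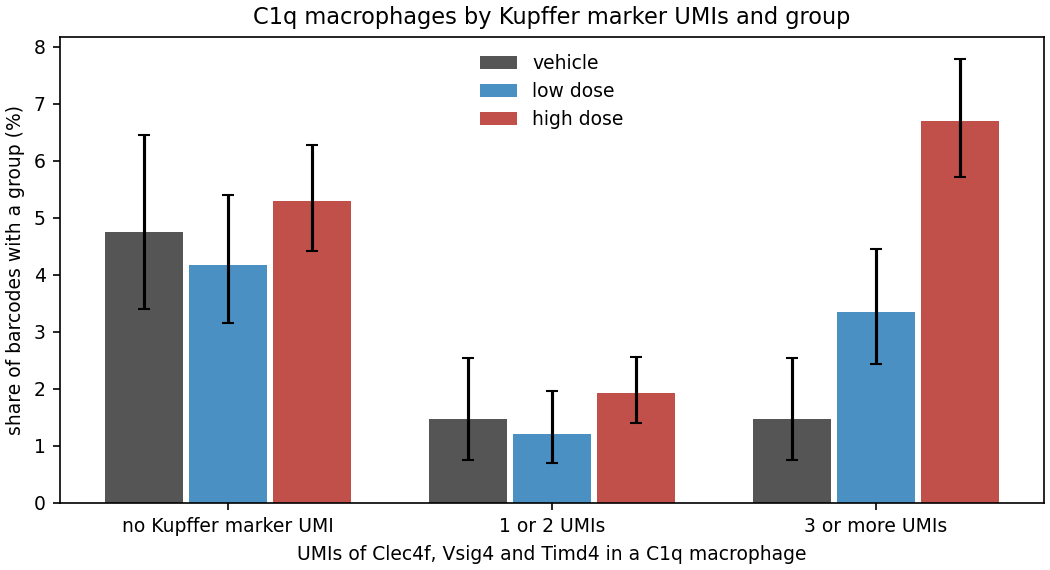
Share of barcodes with a group (%) that were C1q macrophages, by UMIs of Clec4f, Vsig4 and Timd4 together, in vehicle (grey), low-dose (blue) and high-dose (red) samples. Bars are shares of 1 pooled sample each and whiskers exact 95% binomial intervals. The bars without Kupffer marker UMIs stand at 4.76%, 4.17% and 5.29% with overlapping intervals, and those with 3 or more at 1.46%, 3.34% and 6.70%.

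Among the proposed markers of these cells were C1qa, Ms4a7, Apoe and Trem2. UMIs were summed over the cells of a group and scaled to counts per 1000000 (CPM). C1qa, used to choose the cells, stood at 3989 CPM in vehicle, 3367 at the low dose and 4063 at the high dose. Apoe, the lipoprotein that carries cholesterol out of macrophages, stood at 14343, 14598 and 13729.8 CPM. Trem2, a lipid receptor of macrophages, stood at 359, 303 and 317 CPM. These genes stayed within a narrow range across the groups. Ms4a7, a membrane protein of monocyte-derived and other non-Kupffer macrophages, stood at 229, 114 and 167 CPM.

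Shares of cells with a UMI were read after every barcode had been thinned to 1000 UMIs, with 31, 54 and 97 cells of at least that depth in vehicle, low dose and high dose. Ms4a7 was seen in 10.4% of the cells, in 2.22% of cells with Kupffer markers and in 0.739% of T cells, which should lack it. The T cells were 407 barcodes with at least 3 Cd3 UMIs and a median of 4542 UMIs. Trem2 was seen in 20.3%, 18.3% and 0.493% of the same 3 populations. Both markers were above the T cell background, while each was seen in a minority of cells at this depth. Apoe RNA was 14125 CPM in these cells and 13710 CPM in cells with Kupffer markers, a log2 ratio of 0.04 (0.02 to 0.07), so Apoe did not separate the populations.

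The comparison with Kupffer marker cells is a description, because the rule chose both populations from the same counts. Genes are called past 2-fold here when the log2 ratio of CPM was at least 1 or at most -1 and the 2 sides together held at least 50 UMIs of the gene. Of 6611 such genes, 11.2% were past 2-fold, 326 higher (4.93%) and 415 lower (6.28%) in the cells without Kupffer markers. The median log2 ratio over the genes measured was -0.03. Both sides pooled the 3 groups, so dose and marker status are mixed in these ratios. Vehicle, low-dose and high-dose cells numbered 39, 55 and 124 without and 12, 44 and 157 with Kupffer markers. Within these groups, the log2 ratio of the summed UMIs was -3.47, -3.88 and -3.24 for 15 other Kupffer cell genes. For 14 neutrophil genes it was 0.18, 0.66 and 1.13, and for 9 inflammatory cytokine genes 1.69, 0.48 and -0.64.

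The other genes of the Kupffer cell program were low together with the 3 markers of the rule. Of 15 such genes, 13 were past 2-fold lower and none was past 2-fold higher, with a median log2 ratio of -2.88. Marco, a scavenger receptor for bacteria, stood at 20.3 CPM against 3129 (log2 ratio -7.27, -7.77 to -6.81). Cd163, the haptoglobin-hemoglobin receptor, stood at 9.60 CPM against 745 (-6.28). Cd5l, a secreted scavenger protein of resident macrophages, stood at 78.4 CPM against 4499 (-5.84), and the iron exporter Slc40a1 at 91.2 CPM against 2352 (-4.69). The cells without the 3 markers thus also held little RNA of genes that the rule did not read. Outside the list, Kcna2, a potassium channel, and Slc16a9, a member of the monocarboxylate transporter family, had 0 UMIs in these cells, which allows up to 1.60 CPM, and stood at 98.9 and 68.3 CPM in cells with Kupffer markers.

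Several general macrophage receptors were lower too. Of 14 core macrophage genes, 3 were past 2-fold lower and 1 higher. Csf1r, the receptor for the macrophage growth factor, stood at 498 CPM against 1187 (log2 ratio -1.25), and Adgre1, which encodes F4/80, at 106 against 569 CPM (-2.43). Mertk, a receptor for dying cells, stood at 56.0 CPM against 226 (-2.01), and its relative Axl at 106 against 369 CPM (-1.81). Of 9 efferocytosis receptor genes, 3 were past 2-fold lower and 1 higher. The lysozyme gene Lyz2 was the core gene past 2-fold higher, at 8497 CPM against 3540 (1.26). Of 12 lysosomal genes, none was past 2-fold in either direction.

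Some genes of monocytes and of suppressive or repair macrophages were higher in the cells without Kupffer markers, and so were summed genes of other cell types. Of 13 genes of suppressive and alternative activation, 6 were past 2-fold higher and none lower, with a median log2 ratio of 0.96. Chil3, a chitinase-like protein of alternatively activated myeloid cells, stood at 543 CPM against 48.8 (3.48), with 51.9% of its UMIs from 1 cell. Of 10 monocyte genes, 6 were past 2-fold higher and none lower, and within the high dose 3 of 8 were higher and 1 lower, where 5.17% and 7.33% of all genes measured were. Of 6 patrolling monocyte genes, 2 were higher and 3 lower, with a median log2 ratio of -0.42. Ccr2, the receptor that brings monocytes out of the bone marrow, stood at 242 CPM against 62.7 (1.95), and F13a1, coagulation factor XIII, at 149 against 60.6 CPM (0.95 to 1.66 for the log2 ratio). Of 14 neutrophil genes, 7 were past 2-fold higher and 1 lower, summing to 24509 CPM against 13810. The median cell held less of them, 0.275% of UMIs against 0.617%, while 11 barcodes against 4 exceeded 5%. Wfdc17 was the most abundant gene of the neutrophil list in cells with Kupffer markers. Among the 73 barcodes with 1 or 2 marker UMIs, Wfdc17 was seen in 67 and Ly6g in 4. How far these medians reflect neutrophils was not tested. All 3 tumor cell genes measured were higher, at 606 against 36.2 CPM for the list, with 97.0% of those UMIs from 1 barcode. The 10 genes ranked highest were Fxyd3, Cxcl3, Car4, Klk10, Krt7, Slurp1, Krt8, Krt19, Krt18 and Elane, mostly epithelial genes, with the neutrophil granule gene Elane at 121 CPM against 6.97. The part of these other cell types in the comparison was not tested.

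Lipid-associated macrophage genes were divided. Of 18 genes of this list, 7 were past 2-fold higher and 3 lower. Fabp5, a fatty acid carrier, stood at 701 CPM against 104 (2.76), and Spp1, the secreted phosphoprotein osteopontin, at 969 against 306 CPM (1.66). Trem2 stood at 319 CPM against 146 (1.13). In the other direction, Lpl, the lipoprotein lipase, stood at 55.5 CPM against 366 (-2.72). The higher members were Fabp5, Spp1, Trem2, the galectin Lgals1, the tetraspanins Cd9 and Cd63, and Gpnmb, and the lower ones Lpl, the lysosomal lipase Lipa and the cholesterol exporter Abcg1. Of 11 hypoxia and glycolysis genes, 7 were past 2-fold higher, with 0 of 6 measured within vehicle, 6 of 11 within the low dose and 4 of 10 within the high dose. Within these groups, 10.7%, 5.65% and 5.17% of all genes measured were past 2-fold higher. Of 11 complement genes 4 were lower, among them C2, C4b and Cfp, and 1 higher.

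The 73 barcodes with 1 or 2 Kupffer marker UMIs held values that were not always between the 2 populations. H2-Aa stood at 1958 CPM in them, near the 2057 CPM of the cells without a marker UMI, and Apoe at 9482 CPM, below both populations. Marco stood at 52.9 CPM and Cd5l at 196 CPM, against 20.3 and 78.4 CPM in the cells without a marker UMI, and 1 barcode held 44.2% of the Cd5l UMIs. When these barcodes were added to the comparison population, 464 genes in place of 741 were past 2-fold. Of 30 named genes past 2-fold, 9 were then no longer so, among them Trem2, Csf1r and Lyz2.

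**Figure D2:**
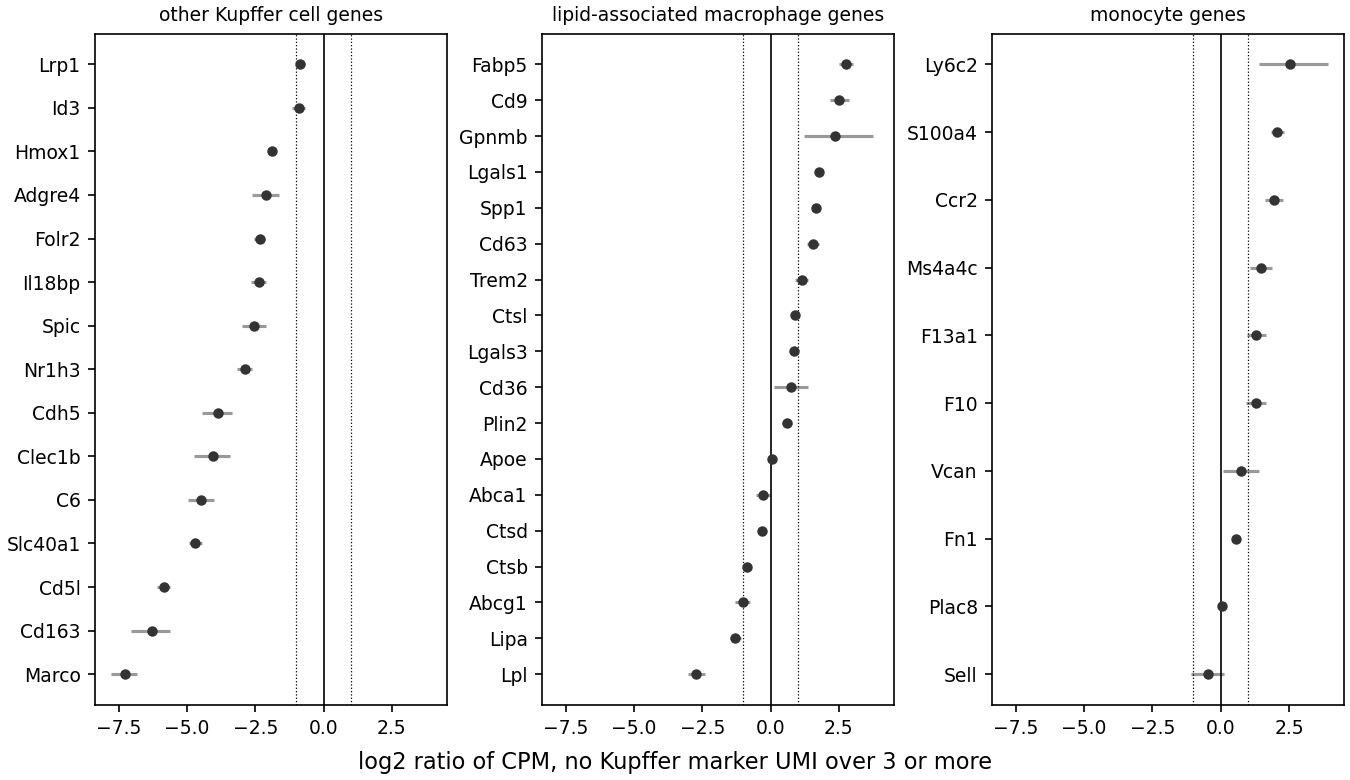
Log2 ratio of CPM, cells without a Kupffer marker UMI over cells with 3 or more, for 3 gene lists. Points are ratios of UMIs summed over 218 and 213 barcodes, grey lines exact 95% counting intervals, and dotted lines 2-fold. Kupffer cell genes lie to the left, down to Marco at -7.27, and Ccr2 (1.95) and Fabp5 (2.76) lie to the right.

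The main question of the design was how treatment changed the cells, and the high dose is described first. The high and the low dose were compared with the same vehicle cells, so their ratios are given side by side and are not independent of each other. Of 3350 genes with at least 50 UMIs, 9.25% were past 2-fold between high dose and vehicle, 171 higher (5.10%) and 139 lower (4.15%). For the low dose, 6.36% of 2719 genes were past 2-fold, 108 higher (3.97%) and 65 lower (2.39%). The medians over the genes measured were -0.06 and -0.00 on the log2 scale.

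Every gene of the MHC class II list was lower after treatment. All 7 were past 2-fold lower at the high dose, with a median log2 ratio of -1.80, and 3 of 7 at the low dose, with a median of -0.98. H2-Aa, the alpha chain of I-A, stood at 4656 CPM in vehicle, 2207 at the low dose and 1076 at the high dose. Its log2 ratio to vehicle was -2.11 at the high dose (-2.23 to -2.0) and -1.08 at the low dose (-1.18 to -0.97). The low-dose value lay between the other groups, without overlap of the counting intervals. The beta chain gene H2-Ab1 stood at 3732, 1887 and 1074 CPM (-1.80 at the high dose), and H2-Eb1, the beta chain of I-E, at 3687, 1652 and 984 CPM (-1.91).

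The chaperones and the regulator of the same pathway showed the same order. Cd74, the invariant chain that guides class II molecules to endosomes, stood at 11164, 6541 and 3822 CPM (-1.55, -1.61 to -1.48). H2-DMa and H2-DMb1, the chains of the editor that loads peptides, stood at 677, 389 and 313 CPM (-1.11) and at 407, 195 and 116 CPM (-1.81). Ciita, the coactivator that switches on class II transcription, stood at 85.8, 79.3 and 38.7 CPM, with a wide interval (-1.15, -1.91 to -0.37). The Ciita values rested on few UMIs, and the ratio was no longer past 2-fold under 5 of the alternative settings. Of 7 MHC class I genes, none was past 2-fold at either dose, and H2-K1 stood at 1566, 1584 and 1685 CPM.

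The promoters of class II genes carry an X box and a Y box, bound by the RFX complex and NF-Y, which recruit Ciita. Of the 7 genes, 4 are used here with RefSeq promoter windows of 250 bases before to 50 after the gene start (GRCm38.p6), with 5 windows because H2-DMa has 2. The 3 windows that held the X box letters are shown, and both H2-DMa windows, which did not hold them, are not, with the core of the X box searched as ACNGATG and the Y box as ATTGG, each on both strands, in capitals.
H2-Aa, chr17:34287774-34288073, minus strand: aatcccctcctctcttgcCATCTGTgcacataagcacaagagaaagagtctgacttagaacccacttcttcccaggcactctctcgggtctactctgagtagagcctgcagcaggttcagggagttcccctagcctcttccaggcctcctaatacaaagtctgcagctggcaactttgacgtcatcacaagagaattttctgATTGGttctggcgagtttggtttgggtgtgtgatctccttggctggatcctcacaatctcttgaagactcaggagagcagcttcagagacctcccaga
H2-Eb1, chr17:34305617-34305916, plus strand: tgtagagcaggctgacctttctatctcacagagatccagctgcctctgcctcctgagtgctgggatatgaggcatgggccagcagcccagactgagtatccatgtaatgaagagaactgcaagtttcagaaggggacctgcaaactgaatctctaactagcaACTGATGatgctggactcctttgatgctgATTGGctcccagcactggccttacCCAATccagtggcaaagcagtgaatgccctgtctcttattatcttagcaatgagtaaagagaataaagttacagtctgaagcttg
H2-DMb1, chr17:34152941-34153240, plus strand: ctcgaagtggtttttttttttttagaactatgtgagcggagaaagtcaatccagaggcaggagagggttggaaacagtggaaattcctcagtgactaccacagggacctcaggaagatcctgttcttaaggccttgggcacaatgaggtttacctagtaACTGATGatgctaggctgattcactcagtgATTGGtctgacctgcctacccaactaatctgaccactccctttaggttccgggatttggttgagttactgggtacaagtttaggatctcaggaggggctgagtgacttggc
The X box letters were found in 3 of the 5 windows and the Y box letters in 4. In H2-Eb1 and H2-DMb1 the X box letters began 88 and 91 bases before the gene start, on the strand of the gene. The Y box letters on that strand began 59 and 61 bases before it. In H2-Aa the X box letters lay on the opposite strand, 232 bases before the start, and the Y box letters on the gene strand, 48 bases before it. Whether the X box letters marked in H2-Aa are its X box was not tested. Over 32851 promoter windows of the same length, the X box letters were present in 9.85%, the Y box letters in 37.4% and both in 3.65%. These letters are short and common, and the X box core was chosen after a longer form of the box had been searched in the same windows. A match is a description of letters in a window, and no binding was measured in these cells.

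Class II RNA varied more between cells of a group than between the groups' medians. The 7 genes together made up 24408 CPM in vehicle, 12951 at the low dose and 7424 at the high dose. Per cell, the median share of UMIs was 1.44%, 0.801% and 0.359%, and the highest cell reached 7.28%, 8.78% and 10.1%. Cells with over 1% class II UMIs numbered 21 of 39, 27 of 55 and 43 of 124, and cells with no class II UMI 1, 4 and 14. High class II cells were thus present in each group and made up a smaller part of the high-dose cells. After thinning to 1000 UMIs, H2-Aa was seen in 64.5% (45.4 to 80.8), 57.4% (43.2 to 70.8) and 42.3% (32.3 to 52.7) of cells, against 4.19% of T cells. The intervals of these shares overlapped. When each cell had equal weight instead of its UMIs, the log2 ratio of H2-Aa at the high dose was -1.25 and those of H2-Ab1, Cd74, H2-DMa and H2-DMb1 were no longer past 2-fold. The 3 low-dose calls, H2-Aa, H2-Eb1 and H2-DMb1, were no longer past 2-fold with that weighting, and H2-Aa and H2-DMb1 also not without barcodes with over 5% other cell types. A single vehicle cell held 20.0% of that group's class II UMIs.

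The cells with Kupffer markers held less class II RNA, and their summed CPM had the same order of groups. Their H2-Aa stood at 2017, 1091 and 636 CPM, and the 7 genes together at 12697, 6896 and 4813 CPM. Their median shares per cell were 0.713%, 0.153% and 0.197%, which put the low dose lowest, and 1 of 12 vehicle cells held 50.5% of the vehicle class II UMIs. Of 6 class II genes measured there, 4 were past 2-fold lower at the high dose, where 5.54% of genes were past 2-fold lower. Whether the size of the difference was particular to cells without Kupffer markers was not tested. Dendritic cells also carry class II, and their list of 12 genes held 473, 278 and 278 CPM. Its most abundant gene was Bst2, at 187, 108 and 160 CPM, followed in vehicle by Itgax, an integrin of dendritic cells and macrophages, at 152, 79.3 and 49.5 CPM, and the transcription factor gene Batf3 at 66.7, 42.8 and 44.1 CPM. Xcr1 and Clec9a, markers of cross-presenting dendritic cells, stood at 38.1, 30.2 and 3.23 CPM and at 22.2, 9.52 and 1.08 CPM, in the same order as the class II genes. Cd209a, Siglech, Ccr7 and Ccl22 had 0 UMIs in every group, which allows up to 9.53, 4.76 and 3.23 CPM. B cell genes stood at 372, 119 and 67.7 CPM, with Igkc the most abundant in vehicle, where 96.8% of it came from 1 cell, Ighm the most abundant at both doses, and Jchain at 0. The part of these cells in the class II difference was not tested.

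**Figure D3:**
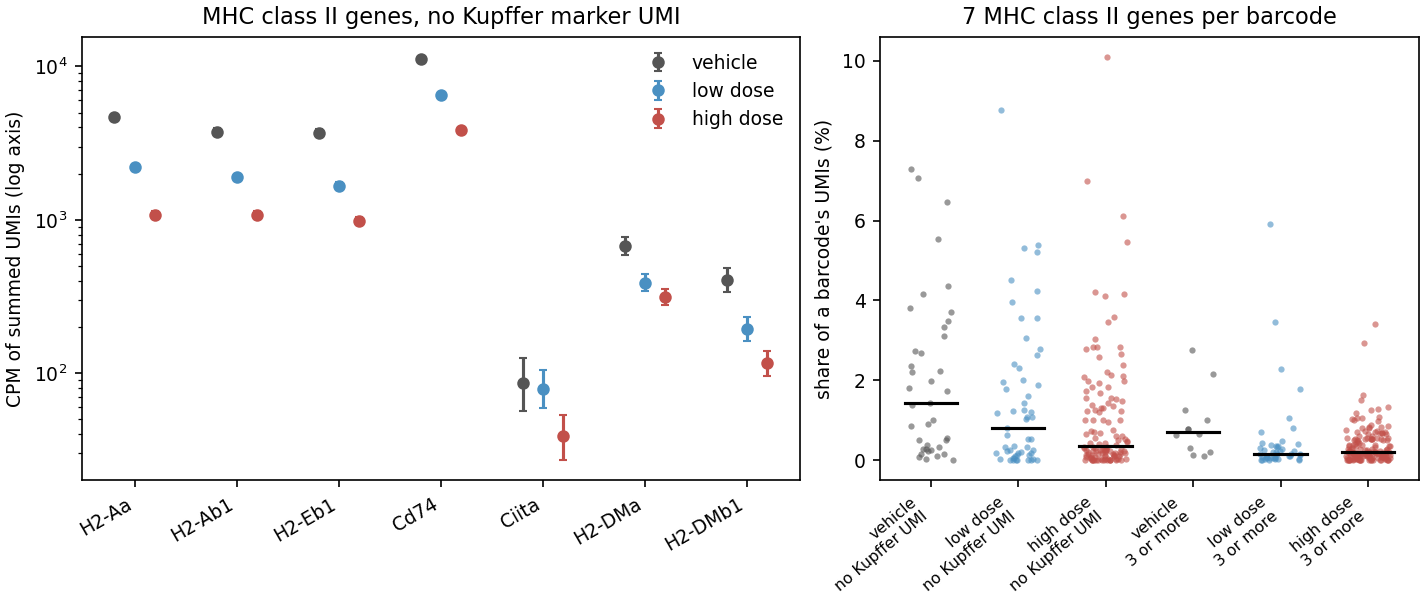
Left, CPM (log axis) of 7 MHC class II genes in cells without a Kupffer marker UMI, with exact 95% counting intervals. Right, class II UMIs as a share of each barcode's UMIs (%), for cells without and with Kupffer markers, with the median as a bar. In each gene on the left vehicle is highest and the high dose lowest. In cells without Kupffer markers, the medians on the right drop from 1.44% to 0.359%, while single cells above 5% remain in each of their groups.

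Fos, Egr1 and some inflammatory genes were lower at the high dose. Of 10 genes of the immediate early and NF-kB feedback list, 3 were past 2-fold lower and none higher, and at the low dose 1 of 11 was lower. Fos, a subunit of AP-1, stood at 1515 CPM in vehicle, 811 at the low dose and 282 at the high dose (-2.43, -2.65 to -2.21). Egr1, a transcription factor induced within minutes of stimulation, stood at 270, 106 and 33.3 CPM (-3.02, -3.66 to -2.41). Nfkbiz, an atypical IkB protein, was the other gene past 2-fold, with a log2 ratio of -1.12. The other 7 genes of the list, Jun, Junb, Atf3 and Ier3 among them, were not past 2-fold. In cells with Kupffer markers, 3 of 7 genes measured were past 2-fold lower at the high dose, beside 5.54% of all genes. The log2 ratio of the summed list was -1.10 there (-1.34 to -0.85) and -1.12 in cells without the markers (-1.22 to -1.03). Of the 12 vehicle cells with Kupffer markers, 1 held 46.7% of their UMIs of the list. Whether the difference was particular to either population was not tested.

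Some genes outside the list were past 2-fold lower as well. Dusp1, a phosphatase that ends MAP kinase signals, stood at 886, 508 and 203 CPM (-2.12), and Rgs1, which damps chemokine receptor signals, at 1455, 540 and 349 CPM (-2.06). Ccrl2, a chemerin-binding receptor, stood at 337, 216 and 59.1 CPM (-2.51). The chemokine Cxcl2, which attracts neutrophils, stood at 2271, 1834 and 330 CPM (-2.78, -2.98 to -2.59 at the high dose, and -0.31 at the low dose). The step for Cxcl2 thus lay between the low and the high dose. It was seen after thinning in 38.7% (21.9 to 57.8), 37.0% (24.3 to 51.3) and 10.3% (5.06 to 18.1) of cells, against 7.14% of T cells, so the high-dose share could not be told from that of T cells. Of the 407 T cells, 38 held over 5% neutrophil UMIs, and their part in the T cell share of Cxcl2 was not tested.

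Il1b, which encodes interleukin-1 beta, stood at 791, 1190 and 210 CPM. Its log2 ratio to vehicle was -1.92 at the high dose (-2.19 to -1.64) and 0.59 at the low dose (0.38 to 0.80), so the 2 doses lay on opposite sides of vehicle. After thinning it was seen in 41.9%, 40.7% and 9.28% of cells, against 3.45% of T cells. Ptgs2, the inducible cyclooxygenase, stood at 114, 52.4 and 25.8 CPM (-2.15), and Vegfa, the angiogenic growth factor, at 82.6, 95.2 and 28.0 CPM (-1.56). Malat1, a nuclear RNA that is retained in intact nuclei, was lower as well, at 16198, 10953 and 6149 CPM (-1.40). In cells with Kupffer markers, Malat1 stood at 10388, 10466 and 6764 CPM. Among cells with at least 1000 UMIs and under 20% mitochondrial UMIs the log2 ratios were -2.42 for Fos, -2.73 for Cxcl2 and -1.39 for Malat1.

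Chemokine genes were divided at the high dose. Of 14 measured, 4 were past 2-fold higher and 3 lower. Ccl2, the ligand of Ccr2, stood at 127, 95.2 and 472 CPM (1.89, 1.42 to 2.40). Ccl7 and Ccl12, which act on the same receptor, stood at 60.3, 100 and 277 CPM (2.20) and at 149, 165 and 531 CPM (1.83). Ccl8, another monocyte attractant, stood at 1359, 386 and 924 CPM, lower at both doses than in vehicle. The low-dose values of Ccl2, Ccl7 and Ccl12 lay within 2-fold of vehicle. After thinning, however, Ccl2 was seen in 12.9%, 9.26% and 12.4% of cells and Ccl7 in 9.68%, 7.41% and 10.3%, so the shares of cells with these chemokines were close in vehicle and high dose while the summed UMIs differed. With each cell given equal weight, the log2 ratio of Ccl12 was -0.065 and that of Ccl7 was no longer past 2-fold.

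The chemokines past 2-fold lower at the high dose were Cxcl2, Cxcl16 (-1.03) and Pf4 (-1.15). Pf4, platelet factor 4, rested on 1 vehicle cell with 66.2% of the UMIs of its group, and without the richest cell on each side its log2 ratio was 0.22. Cxcl10, an interferon-induced chemokine, stood at 9.53, 160 and 96.8 CPM, but 87.1% of the low-dose UMIs came from 1 cell. Of 7 interferon-stimulated genes measured at the high dose, 1 was past 2-fold higher and none lower, and Isg15, a ubiquitin-like protein, stood at 98.5, 88.9 and 72.0 CPM.

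**Figure D4:**
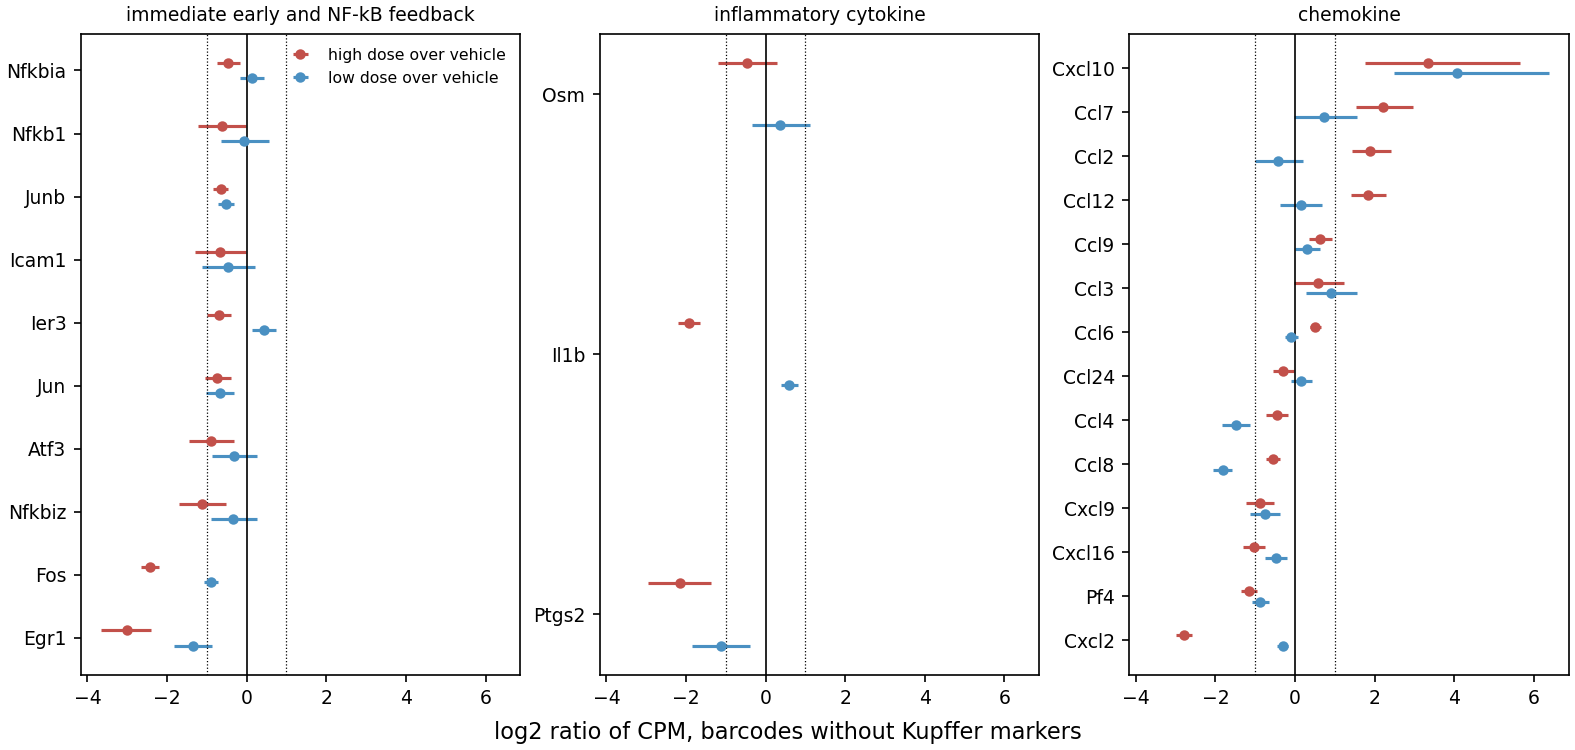
Log2 ratio of CPM to vehicle at the high dose (red) and the low dose (blue), in cells without Kupffer markers, for 3 gene lists; lines are exact 95% counting intervals and dotted lines 2-fold. Egr1 (-3.02), Cxcl2 (-2.78) and Fos (-2.43) lie to the left at the high dose, Ccl7 (2.20), Ccl2 (1.89) and Ccl12 (1.83) to the right, and Il1b lies left at the high and right at the low dose.

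Of 16 lipid-associated macrophage genes measured between the high dose and vehicle, 5 were past 2-fold higher and none lower. Fabp5 stood at 187, 552 and 976 CPM (2.38, 2.0 to 2.79, and 1.56 at the low dose). It was seen after thinning in 9.68% (2.04 to 25.8), 14.8% (6.62 to 27.1) and 30.9% (21.9 to 41.1) of cells, against 9.11% of T cells. The vehicle interval thus included the T cell share and the high-dose interval lay above it. Whether the T cell share is a background level for Fabp5 was not tested. Spp1 stood at 489, 819 and 1233 CPM (1.33) but in 22.6%, 13% and 20.6% of cells. Lgals1, a galectin, stood at 1115, 1182 and 2581 CPM (1.21) and the tetraspanin Cd9 at 197, 190 and 440 CPM (1.16), and 1 high-dose cell held 46.1% of the UMIs of Lgals1 and 71.1% of those of Cd9. Without the richest cell on each side, the Cd9 log2 ratio was -0.18 and Lgals1 was no longer past 2-fold. With each cell given equal weight, Spp1, Lgals1 and Cd9 were not past 2-fold.

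Single genes of other groups also differed. Gas6, the ligand that links dying cells to Axl and Mertk, stood at 6.35, 12.7 and 69.9 CPM (3.46, 1.55 to 6.54, from 2 vehicle cells with UMIs). Folr2, a folate receptor of resident macrophages, stood at 41.3, 129 and 146 CPM (1.82 at the high and 1.64 at the low dose). Of 8 genes measured of the other Kupffer cell genes, Folr2 was the 1 past 2-fold higher at each dose. In that list 1 gene was past 2-fold lower at the high dose and 3 at the low dose. Ccr2 stood at 391, 257 and 181 CPM (-1.11), but was no longer past 2-fold under 2 of the alternative settings, at -0.90 without barcodes with over 5% other cell types. Of 7 monocyte genes measured at the high dose, 1 was past 2-fold higher (2.35) and Ccr2 alone lower. At the low dose 3 of 7 were higher and none lower. Socs3, an inhibitor of cytokine signals, stood at 245, 203 and 114 CPM (-1.10). Of 14 core macrophage genes, none was past 2-fold at the high dose, and of 4 measured genes of the cell death pathway that the study examined none was past 2-fold at either dose. Zbp1, the sensor of Z-form nucleic acids in that pathway, stood at 108, 58.7 and 66.7 CPM, and Ripk3, its partner kinase, at 31.8, 42.8 and 32.3 CPM. None of 3 measured p53 target genes was past 2-fold at the high dose, and Cdkn1a stood at 279, 267 and 213 CPM.

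The low dose stood apart by Saa3, an acute-phase serum amyloid made by macrophages. Saa3 stood at 346 CPM in vehicle, 7539.5 at the low dose and 842 at the high dose. The low-dose log2 ratio was 4.44 (4.17 to 4.73) and the high-dose ratio 1.28 (0.99 to 1.58). The high-dose ratio was no longer past 2-fold with at least 10 C1q UMIs, nor with each cell given equal weight. A Saa3 UMI was present in 8 of 39 vehicle cells, 42 of 55 low-dose cells and 22 of 124 high-dose cells. After thinning the shares were 9.68% (2.04 to 25.8), 59.3% (45.0 to 72.4) and 10.3% (5.06 to 18.1), against 4.43% of T cells, so Saa3 was widespread at the low dose alone among these 3 samples. In vehicle, 64.2% of the Saa3 UMIs came from 1 cell, and without the richest cell on each side the low-dose log2 ratio was 5.66. Cells with Kupffer markers had Saa3 at 0 (up to 39.8 allowed), 5134 and 735 CPM, the low dose again highest. At both doses Saa3 was the most abundant gene there of the list of peritoneal and capsular macrophages. A single barcode held 39.5% of the UMIs of that list at the low dose and 59.9% at the high dose.

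The genes ranked highest at the low dose also included those of other cell types. Of the first 10, Ngp, Ltf, Lcn2, S100a8 and Camp were of the neutrophil list and Ptprb of the endothelial list, and the others were Saa3, Cxcl13, Wfdc21 and the water channel gene Aqp1. Of 12 neutrophil genes measured, 8 were past 2-fold higher and 1 lower, and of 5 endothelial genes 3 were higher and none lower, with the endothelial list at 940, 1165 and 602 CPM and Fcgr2b its most abundant gene. Ptprb had 0 UMIs in vehicle and stood at 87.3 CPM at the low dose, with 63.6% from 1 cell.

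Some other myeloid genes were higher at the low dose. Lyz2 stood at 4513, 11070.5 and 8101 CPM (1.29 at the low and 0.84 at the high dose). The complement genes C3 and Cfb stood at 88.9, 260 and 118 CPM (1.55) and at 102, 227 and 131 CPM (1.16). F10, coagulation factor X, stood at 82.6, 268 and 83.9 CPM (1.70), and Abca1, a cholesterol exporter, at 88.9, 217 and 116 CPM (1.29). For these 4 genes the high-dose value lay within 2-fold of vehicle. In the other direction, the fractalkine receptor Cx3cr1 stood at 375, 113 and 230 CPM (-1.73), and the chemokines Ccl8 and Ccl4 at 1359, 386 and 924 CPM (-1.82) and at 521, 186 and 380 CPM (-1.49). Cxcl13, a B cell chemokine, had 0 UMIs in vehicle (up to 9.53 CPM allowed) and 1046 CPM at the low dose, of which 98.9% came from 1 cell.

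The steepest high-dose increases were not of macrophage genes. The 10 genes ranked highest were the neutrophil granule genes Ngp, Ltf, Elane and Camp, the epithelial genes Krt18, Krt8, Krt19, Krt7 and Fxyd3, and the globin gene Hbb-bs. Ngp stood at 15.9, 906 and 2269 CPM. Krt18, a keratin of epithelial tumor cells, stood at 3.18, 0 and 425 CPM, with 97.5% of the high-dose UMIs from 1 cell, and Hbb-bs stood at 22.2, 22.2 and 707 CPM, with 97.3% from 1 cell. The keratin and globin values were therefore those of single barcodes. The tumor cell list summed to 15.9, 4.76 and 1214 CPM and the erythroid list to 92.1, 39.7 and 1169 CPM.

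RNA of the neutrophil list was present in all groups. Its most abundant gene was Wfdc17 in vehicle, S100a8 at the low dose and S100a9 at the high dose. How far the vehicle sum and the medians reflect neutrophils was not tested. The 14 neutrophil genes summed to 6917 CPM in vehicle, 27351 at the low dose and 28538 at the high dose. Per cell, the median share was 0.278%, 0.311% and 0.235% of UMIs, with the highest cell at 18.1%, 38.2% and 26.8%, and 1, 4 and 6 cells exceeded 5%. The sums thus differed while the median cells were close, and 1 barcode held 55.4%, 51.9% and 25.7% of the neutrophil UMIs of its group. S100a8, a calprotectin subunit, stood at 1366, 10299 and 8163 CPM, and T cells of the same library held 29437 CPM of it. Of the 407 T cells, 38 exceeded 5% of UMIs from the 14 neutrophil genes, while the median T cell held 0.0753%. Without C1q macrophages that had over 5% of UMIs from other cell types, the high-dose log2 ratios of S100a8 and S100a9 went from 2.58 and 2.87 to -0.54 and -0.98. The class II, Fos and Cxcl2 ratios kept their direction there, at -1.96 for H2-Aa, -2.26 for Fos and -2.77 for Cxcl2, and that of Saa3 at the low dose was 5.92. No doublet caller was run within a hashtag group.

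**Figure D5:**
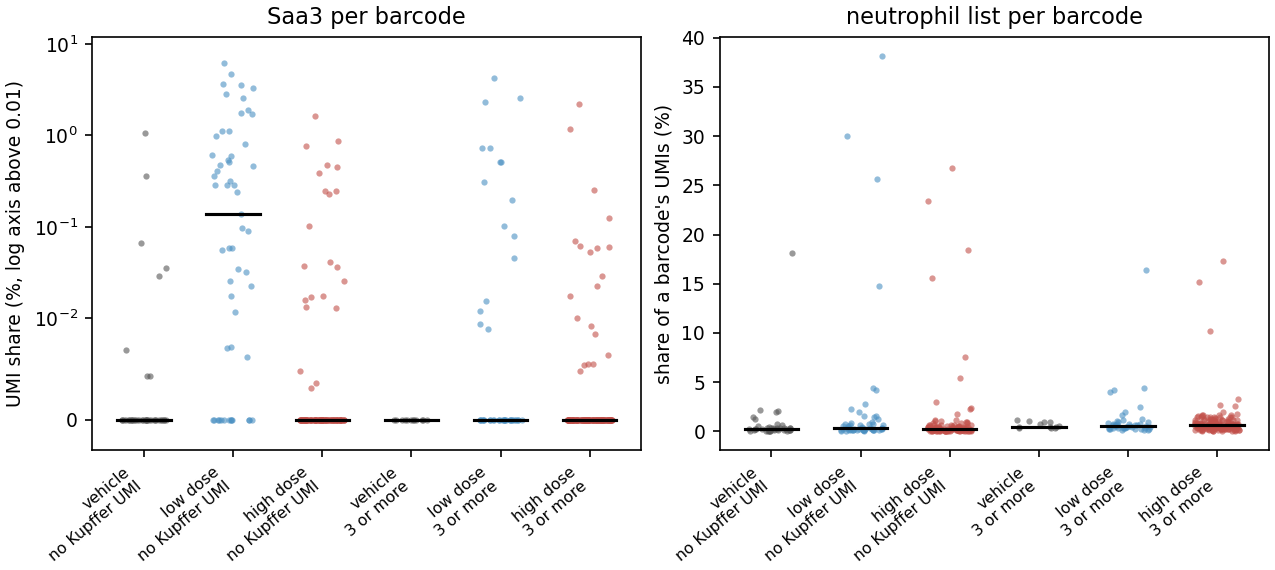
Saa3 UMIs (left, log axis above 0.01%, linear below) and UMIs of 14 neutrophil genes (right) as a share of each barcode's UMIs (%), by group, for cells without and with Kupffer markers. Points are barcodes and bars medians. Saa3 is spread over most low-dose cells (42 of 55), and the neutrophil genes have medians of 0.235% to 0.311% in cells without and 0.488% to 0.621% in cells with Kupffer markers, with single barcodes up to 38.2%.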

How the data were processed

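RNA of single cells was measured in 2 droplet libraries (10x Genomics), and the library labelled spleen was analysed here. The authors deposited, per barcode, raw UMI counts of each gene and hashtag from the filtered Cell Ranger output, without normalization and without cell types. The matrix header names Cell Ranger 5.0.0, the submitters' processing notes Cell Ranger 6.0.0, Seurat and mm10. Of 30 gene lists, 2 genes were not found in the feature list.

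Groups came from the leading hashtag, with a minimum of 10 UMIs and a lead of 3 times, which drops doublets between hashtags. HTODemux of Seurat 5.3.0 in R 4.3.3 (quantile 0.99) was the alternative. UMIs were summed over cells and scaled to 1000000 (CPM), with exact Poisson intervals. Shares carry exact Clopper-Pearson intervals, and their differences limits from both. For log2 ratios, exact conditional binomial intervals were computed. The level was 95% for each interval, and the limits of differences have no exact level. A side at 0 was set to a floor of 3 counts, close to the one-sided limit of a count of 0 and below its two-sided one. Ratios were read only where both sides together held at least 50 UMIs. Thinning drew UMIs at random with a fixed seed, leaving out shallower barcodes. The scripts used pandas 2.3.3, scipy 1.17.1 and numpy 2.4.6 under Python 3.11.15. The ratio and its interval were tested on simulated data drawn from the same counting model. That checked the calculation only, because UMIs gathered in single cells were not simulated. With 1 pooled sample per group no test was run.

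The cells, the gene lists and the comparisons were chosen with earlier results of these data known. Named genes were those of the lists, the 10 with the largest rise and the 10 with the largest fall per comparison by the interval bound nearest 0, and the 20 of highest CPM. Results for 2 genes of the lists are not reported here. Alternatives are given in the closing section.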

Additional observations from a re-analysis of the deposited data

Results flagged for a closer look

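Among 347 barcodes of the library labelled spleen without a hashtag call, 15 met the other conditions of the rule and entered no comparison. In the library labelled liver, 194 barcodes met the same conditions, and they were not compared here.

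In 4 genes the high-dose ratio to vehicle was past 2-fold in opposite directions in cells without and with Kupffer markers. These differences were not tested, and they rest on few UMIs of the 12 vehicle cells with Kupffer markers and in 3 of the genes also on single vehicle cells without them. Il1b had a log2 ratio of -1.92 (791 to 210 CPM) without and 1.27 (106 to 255 CPM) with Kupffer markers, the latter from 8 vehicle UMIs, 75% of them in 1 cell. Mmp9, a matrix metalloproteinase that neutrophils also carry, had ratios of -1.64 (632 to 202 CPM, with 49.2% of the vehicle UMIs in 1 cell) and 3.40 (13.3 to 140 CPM), the latter from 1 vehicle UMI. Pf4 had ratios of -1.15 and 5.08, the former with 66.2% of the vehicle UMIs in 1 cell and the latter from 2 vehicle UMIs. Dnase1l3, a secreted DNase, had ratios of -1.47 (92.1 to 33.3 CPM, from 29 vehicle UMIs, 69.0% of them in 1 cell) and 2.01 (-0.53 to 7.34), the latter from 1 vehicle UMI.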

How the results depend on the processing

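The differences in shares lay within the counting limits of the main values under every alternative run. Their sizes varied, and the low-dose difference in the share of barcodes changed sign. The high-dose minus vehicle share of barcodes ranged from 0.00884 to 1.51 points and the low-dose one from -0.829 to 0.442. The share without Kupffer markers among C1q macrophages differed from vehicle by -28.5 to -22.2 points at the high dose and by -17.7 to -10.5 at the low dose.

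Counts of genes past 2-fold moved with the weighting and the minimum. For the high dose, the low dose and the comparison with Kupffer marker cells, they were 310, 173 and 741. They became 684, 409 and 1191 with the mean over cells, 933, 615 and 1297 with at least 20 UMIs per gene, and 67, 36 and 267 with at least 200 UMIs. At least 10 C1q UMIs gave 178 for the high dose, and a comparator with at least 1 Kupffer UMI gave 464. With the mean over cells, 15 of 29 named genes past 2-fold at the high dose stayed so, and 26 of 29 without the barcode richest in each gene. The latter setting, and the shares of barcodes with at least 2000 UMIs, were added with the data in view.

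The high-dose direction reversed in 5 genes, and the cause was not tested. Cd9 became -0.46 with at least 10 C1q UMIs, -0.63 with the mean over cells and -0.18 without the richest barcode. S100a8 became -0.54 and S100a9 -0.98 without barcodes with over 5% other cell types, Ccl12 -0.065 with the mean over cells, and Pf4 0.22 without the richest barcode.

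No paired analysis was possible because each group was 1 pooled sample. The vehicle values rest on 39 cells, the high-dose cells were shallowest per cell, and differences between mice, dissociation or sorting cannot be told apart from treatment.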
